A study of Mus musculus with 2 samples.

Results

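The 6 genes described here encode subunits of the NMDA receptor, a glutamate-gated ion channel: Grin1, Grin2a, Grin2b, Grin2c, Grin2d and Grin3a. They were chosen by symbol, and each symbol had exactly 1 row among the 31040 genes of the count matrix, of which 24086 had at least 1 count. The counts come from single-nucleus RNA sequencing of the mouse prefrontal cortex. The genes were followed across cell types named from marker genes, and the ratio of Grin2a to Grin2b was taken in each type.

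An NMDA receptor is a tetramer that needs GluN1 subunits, the product of Grin1, joined with GluN2 subunits (Grin2a to Grin2d) or GluN3 subunits (Grin3a). GluN1 binds the co-agonists glycine and D-serine, GluN2 subunits bind glutamate and set the speed of the channel, and GluN3A lowers calcium entry and the block by magnesium. In the cortex Grin2b is known for early expression and slow currents, and Grin2a for faster currents that gain weight as circuits mature.

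All mice were wild-type male C57BL/6 animals aged 2 months. The METH group received methamphetamine, a stimulant that releases dopamine, at 5 mg/kg into the peritoneum over 14 days, and the Control group received saline. Cortex of 3 mice was pooled in each group, taken under chloral hydrate anaesthesia. The matrix holds 2 libraries, told apart by the number that ends each barcode. The labels do not say which number belongs to which group, and METH was therefore not compared with Control. Values are given for both libraries summed, as 1 pooled sample without replicates, and for library 1 and library 2 side by side.

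Library 1 had 9890 barcodes with 31273163 unique molecular identifiers (UMIs, counted RNA molecules), a median of 2876 per barcode, and library 2 had 10876 barcodes with 35292937 UMIs, a median of 2977. The libraries shared 154 barcode sequences, 111 of them among the nuclei kept. After a minimum of 500 genes and removal of called doublets, 18002 nuclei remained (8003 in library 1 and 9999 in library 2). They formed 31 types of at least 50 nuclei, of which 22 were named from markers and 9 are called by their 2 leading genes. The labels name the prefrontal cortex, yet 1404 nuclei carried markers of striatal projection neurons, 421 in library 1 and 983 in library 2. Levels are CPM, the UMIs of a gene as a share of all UMIs of the type, scaled to a total of 1000000, with exact Poisson 95% intervals that cover counting error only. They are compared between types and not between genes, since they are not per transcript length.

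Free RNA reached nuclei of all types. Slc17a7, the vesicular glutamate transporter of excitatory neurons, stood at 429 CPM in microglia and 354 CPM in oligodendrocytes, against 309 CPM in layer 2/3 neurons. Each level was therefore set beside an upper limit for free RNA, and a gene was called above it only where the lower bound of its interval exceeded that limit. In each library the class with the lowest level of a gene for its free RNA sets that limit, and cannot exceed it there. Where that class is glial, a level not above the limit does not show that the transcript is absent.

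All 6 genes lie on the minus strand of the mouse genome (GRCm38, GENCODE M21). Grin1 (ENSMUSG00000026959) spans chr2:25291181-25319187 (28 kb) and Grin2c (ENSMUSG00000020734) spans chr11:115249169-115267243 (18.1 kb). Grin2a (ENSMUSG00000059003) spans chr16:9567898-9995560 (427.7 kb) and Grin2b (ENSMUSG00000030209) spans chr6:135713233-136173511 (460.3 kb). Grin2d (ENSMUSG00000002771) lies at chr7:45831883-45878378 (46.5 kb) and Grin3a (ENSMUSG00000039579) at chr4:49661611-49845744 (184.1 kb). RefSeq promoter windows (GRCm38.p6) matched 3 of the 6 members. Upstream stretches are shown for Grin1, called in every neuron type, and for Grin2c, highest in astrocytes, as members with contrasting profiles. They read 5′ to 3′ on the minus strand, with CG dinucleotides in capitals. The stretch before Grin1 lies at chr2:25319188-25319437 and that before Grin2c at chr11:115267298-115267493.
Grin1: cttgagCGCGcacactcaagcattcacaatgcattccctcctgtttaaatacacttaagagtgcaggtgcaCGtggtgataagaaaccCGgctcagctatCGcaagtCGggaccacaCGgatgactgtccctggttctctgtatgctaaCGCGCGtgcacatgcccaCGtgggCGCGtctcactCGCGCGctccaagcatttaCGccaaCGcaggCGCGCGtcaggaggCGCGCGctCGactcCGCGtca
Grin2c: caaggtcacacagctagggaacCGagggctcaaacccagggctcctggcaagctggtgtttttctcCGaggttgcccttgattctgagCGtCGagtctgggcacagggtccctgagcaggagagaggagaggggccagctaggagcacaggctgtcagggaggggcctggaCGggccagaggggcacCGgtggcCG
The Grin1 stretch of 250 bases held 27 CG dinucleotides at a GC content of 58.8%, and the Grin2c stretch of 196 bases held 7 at 64.8%. In the whole windows of 300 bases the counts were 33 and 22, against a median of 7 over 32851 windows. The E-box CANNTG, a pattern bound by basic helix-loop-helix factors, occurred 4 times in the Grin1 window and 0 times in the Grin2c window, and 72.3% of all windows held one. The GC box GGGCGG occurred 1 time in the Grin1 window and 3 times in the Grin2c window, each time outside the stretch shown, and 35.7% of all windows held it. Both strands were searched, and a match or its lack describes these letters alone.

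Grin1, the obligatory subunit, was a neuronal transcript with a narrow range over neuron types. The matrix held 36138 Grin1 UMIs, and 72.0% of those in the nuclei kept came from excitatory neurons, 14.7% from inhibitory neurons and 8.19% from striatal projection neurons. By class, Grin1 stood at 658 CPM (633 to 684; libraries 675 and 652) in striatal projection neurons. Excitatory neurons had 596 CPM (588 to 604; libraries 609 and 584) and inhibitory neurons 508 CPM (494 to 523; libraries 517 and 501). Each step of this order held in both libraries, with 1.10-fold (1.06 to 1.15) between striatal and excitatory and 1.17-fold (1.14 to 1.21) between excitatory and inhibitory neurons.

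Among the 14 named excitatory, inhibitory and striatal types, Grin1 was highest in layer 5 extratelencephalic neurons, which project out of the cortex to brainstem and spinal cord, at 717 CPM (689 to 745; libraries 745 and 685). It was lowest in layer 6b neurons, a deep remnant of the subplate, at 462 CPM (426 to 501; libraries 473 and 446), a range of 1.55-fold. Indirect-pathway striatal neurons, which carry dopamine D2 receptors, had 685 CPM (libraries 774 and 655) and in library 1 stood above the extratelencephalic type. Of the other excitatory types, layer 6 corticothalamic neurons had 665 CPM, layer 2/3 neurons 650.3 CPM and near-projecting neurons 622 CPM. Layer 4/5 intratelencephalic neurons had 545 CPM, deep-layer intratelencephalic neurons 543 CPM and claustrum-like neurons 530.1 CPM, while direct-pathway striatal neurons, which carry D1 receptors, had 658 CPM. The 4 named interneuron types lay together, from 473 CPM in parvalbumin to 515 CPM in somatostatin interneurons.

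None of the 30 pairs of neighbours in the order of all types was apart for Grin1, where apart means that the exact interval of their ratio excluded 1 and that both libraries had the same order. Outside these types, neuroblasts, immature cells from a cluster led by Igfbpl1 and Top2a, had 355 CPM (284 to 438; libraries 308 and 368) and cholinergic neurons had 284 CPM (229.7 to 346; libraries 246 and 303). Markers of dividing cells scored next in the neuroblast cluster, and the type may include dividing progenitors. In non-neuronal types Grin1 could not be told from free RNA: levels ran from 107 CPM in fibroblasts to 197 CPM in differentiating oligodendrocytes, and 0 of 6 types exceeded the limit (173 CPM in oligodendrocytes, for example, against a limit of 183). The Grin1 limit was itself set by a non-neuronal class, so this outcome was partly fixed in advance. All 24 neuron types exceeded the limit in both libraries. Shares were also taken with nuclei thinned to 1000 UMIs, where nuclei with fewer UMIs were left out. This kept 526 of 527 layer 5 extratelencephalic neurons, 760 of 3060 oligodendrocytes, 240 of 305 astrocytes and 241 of 352 oligodendrocyte precursors. After thinning, the share with a Grin1 UMI was 52.3% (47.9 to 56.6%) in layer 5 extratelencephalic neurons and 14.3% (11.9 to 17.0%) in oligodendrocytes. Without thinning the shares were 96.6% at a median of 6632 UMIs and 14.1% at a median of 811 UMIs.

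Grin2a, which encodes GluN2A, differed most between interneuron types. It was highest in LAMP5 or NDNF interneurons, which include the neurogliaform cells, at 1329 CPM (1254 to 1408; libraries 1347 and 1312). Of the 14 named excitatory, inhibitory and striatal types, it was lowest in VIP interneurons, which mainly inhibit other interneurons, at 264 CPM (234 to 297; libraries 244 and 278). The highest level was 5.03 times the lowest. Somatostatin interneurons, which inhibit dendrites, had 561 CPM (524 to 599.8; libraries 560.1 and 561), and parvalbumin interneurons, which inhibit cell bodies, had 476 CPM (451 to 503; libraries 479 and 474). Interneuron types thus stood at the top and, of these 14 types, at the bottom of the order in both libraries. Cholinergic neurons, outside the 14, were lower still, as given below.

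Excitatory types also differed in Grin2a. Layer 5 extratelencephalic neurons had 969.5 CPM (937 to 1002; libraries 942 and 1001), and LAMP5 or NDNF interneurons exceeded them 1.37-fold (1.28 to 1.47). They in turn exceeded layer 2/3 neurons, at 929.7 CPM (908 to 952; libraries 934 and 925), by 1.04-fold (1.001 to 1.09). Near-projecting neurons had 847 CPM (libraries 906 and 799) and layer 4/5 intratelencephalic neurons 776 CPM (libraries 746 and 802). Of the named excitatory types these were the highest. The unnamed excitatory clusters Trpm3/Zbtb20, at 871.5 CPM, and Il1rapl2/Deptor, at 800.7 CPM, lay among them. Deep-layer intratelencephalic neurons had 702 CPM, layer 6 corticothalamic neurons 629 CPM and claustrum-like neurons 477 CPM. Layer 6b neurons were lowest at 296 CPM (267 to 327; libraries 272 and 333).

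Both named striatal types stood below 6 of the 8 named excitatory types in Grin2a in both libraries. Direct-pathway neurons had 462 CPM (431 to 495; libraries 548 and 435) and indirect-pathway neurons 408 CPM (372 to 445; libraries 407 and 408). The unnamed Alk/Adarb2 cluster of the striatal class, by contrast, had 861 CPM (776 to 952; libraries 955 and 812). Neuroblasts had 301 CPM (236 to 379; libraries 288 and 305). Cholinergic neurons had 91.6 CPM (62.2 to 129.9; libraries 67.9 and 104), above the free RNA limit of 30.7 CPM in the pooled sample but not in each library. Of the 30 pairs of neighbours 7 were apart, 6 of them in the upper part of the order, from LAMP5 or NDNF interneurons down to claustrum-like neurons. None of the 6 non-neuronal types exceeded the limit for Grin2a; astrocytes came nearest, at 128 CPM (94.4 to 169; libraries 53.6 and 140.3) against 98.5 CPM.

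Grin2b, which encodes GluN2B, had a narrower range than Grin2a. It was 1.84-fold against 5.03-fold over the 14 named excitatory, inhibitory and striatal types, and 4.03-fold against 14.5-fold over all 24 neuron types. Layer 2/3 neurons had the highest level at 1502 CPM (1475 to 1530.3; libraries 1354 and 1639). Direct-pathway striatal neurons followed at 1366 CPM (1312 to 1421; libraries 1276 and 1395), and the step between them was 1.10-fold (1.05 to 1.15). Indirect-pathway neurons had 1304 CPM (1240.4 to 1369; libraries 1154 and 1354) and deep-layer intratelencephalic neurons 1238 CPM (1199.5 to 1278; libraries 1219 and 1253). These 4 types formed the top of the order of the 14 named types in both libraries.

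The remaining cortical types lay close together for Grin2b. Layer 6 corticothalamic neurons had 1063 CPM, somatostatin interneurons 1043 CPM, layer 5 extratelencephalic neurons 1036 CPM and layer 4/5 intratelencephalic neurons 1016 CPM. Claustrum-like neurons had 976 CPM, parvalbumin interneurons 906 CPM and layer 6b neurons 893 CPM. VIP interneurons had 990.1 CPM (930.5 to 1053; libraries 1084 and 923) and LAMP5 or NDNF interneurons 901 CPM (838 to 966; libraries 951 and 852), with VIP higher in both libraries. Near-projecting neurons were the lowest of the 14 at 817 CPM (744 to 894; libraries 855 and 786).

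Beyond the 14 types, the lowest neuron types for Grin2b included the unnamed inhibitory Il1rapl2/Pde3a cluster of 76 nuclei, at 373 CPM (296 to 464; libraries 424 and 351), and the Meis2/Zfhx3 cluster of 407 nuclei, at 692 CPM (648 to 738; libraries 639 and 717). It stood at 635 CPM (539 to 744; libraries 481 and 678) in neuroblasts, against a limit of 149 CPM, and at 644 CPM (561 to 735; libraries 603 and 666) in cholinergic neurons. In astrocytes the level of 214 CPM (169.9 to 265) exceeded the limit of 147 CPM in the pooled sample, but the libraries gave 53.6 and 241 CPM. Library 1 held 49 astrocytes and library 2 held 256. Of the 30 neighbour pairs, 5 were apart.

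**Figure D1:**
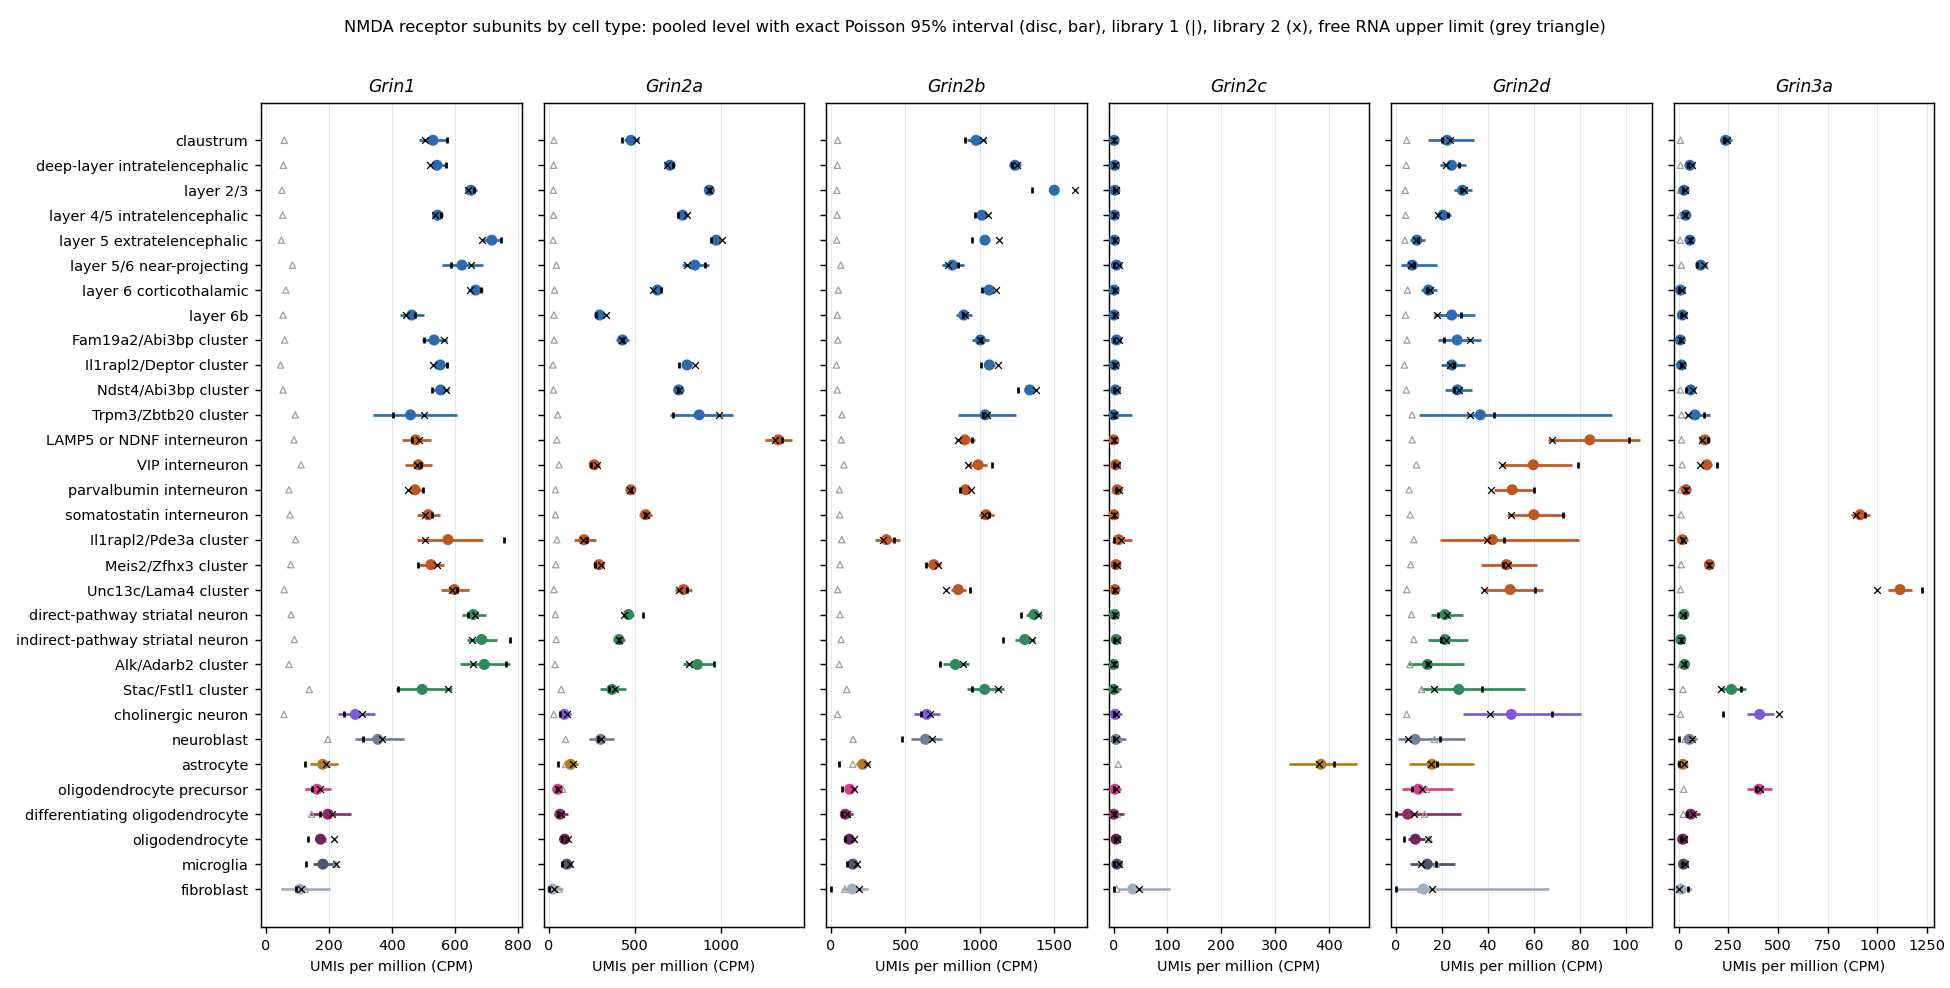
Levels of the 6 members in 31 cell types (vertical axis) in CPM (horizontal axes, a scale of its own for each gene), with exact Poisson 95% intervals, the values of libraries 1 and 2 and the upper limit for free RNA marked as in the legend. Grin1, Grin2a and Grin2b were high in most neuron types, and Grin2c stood out in astrocytes at 386 CPM. Grin3a stood out in the Unc13c/Lama4 cluster at 1113 CPM, somatostatin interneurons at 913 CPM, cholinergic neurons at 408 CPM and oligodendrocyte precursors at 403 CPM.

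The ratio of Grin2a to Grin2b UMIs was lower in the striatal class as a whole than in the excitatory and inhibitory classes. Single types of these classes overlapped, as given below. The ratio is compared between types and not with 1. It was 0.659 (0.649 to 0.668; libraries 0.695 and 0.629) in excitatory neurons and 0.625 (0.603 to 0.647; libraries 0.637 and 0.614) in inhibitory neurons. In striatal projection neurons it was 0.389 (0.369 to 0.411; libraries 0.486 and 0.359), and in cholinergic neurons 0.142 (0.0943 to 0.208; libraries 0.113 and 0.156). The excitatory ratio was 1.69 times (1.60 to 1.79) the striatal ratio, 1.43 times in library 1 and 1.75 times in library 2. The inhibitory ratio was 1.60 times (1.504 to 1.71) the striatal ratio, 1.31 and 1.71 times in the libraries. Between excitatory and inhibitory neurons the fold was 1.05 (1.01 to 1.10), and in library 2 alone 1.03 (0.974 to 1.08).

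Within the inhibitory class the ratio varied more than between the classes. LAMP5 or NDNF interneurons had the highest ratio, 1.48 (1.35 to 1.62; libraries 1.42 and 1.54). VIP interneurons had the lowest of the 14 named excitatory, inhibitory and striatal types, 0.267 (0.233 to 0.305; libraries 0.225 and 0.301), a gap of 5.53-fold. Somatostatin interneurons, at 0.538 (0.494 to 0.585; libraries 0.527 and 0.546), and parvalbumin interneurons, at 0.526 (0.492 to 0.562; libraries 0.551 and 0.503), lay next to each other between them.

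Excitatory types ran from near-projecting neurons at 1.04 (0.911 to 1.18; libraries 1.06 and 1.02) and layer 5 extratelencephalic neurons at 0.936 (0.893 to 0.981; libraries 0.992 and 0.883) to layer 6b neurons at 0.332 (0.294 to 0.373; libraries 0.307 and 0.368). Layer 4/5 intratelencephalic neurons had 0.764 (0.738 to 0.790; libraries 0.770 and 0.758) and layer 2/3 neurons 0.619 (0.601 to 0.638; libraries 0.690 and 0.565). Layer 6 corticothalamic neurons had 0.592 (0.566 to 0.619; libraries 0.642 and 0.544), deep-layer intratelencephalic neurons 0.567 (0.538 to 0.597; libraries 0.593 and 0.548) and claustrum-like neurons 0.489 (0.436 to 0.548; libraries 0.475 and 0.497). Near-projecting and layer 5 extratelencephalic neurons thus stood well above layer 6b in both libraries. Direct-pathway striatal neurons, at 0.339 (0.312 to 0.366; libraries 0.429 and 0.312), and indirect-pathway neurons, at 0.313 (0.282 to 0.346; libraries 0.352 and 0.301), lay on either side of layer 6b. The striatal class also held the unnamed Alk/Adarb2 cluster of 180 nuclei, whose ratio was 1.03 (0.890 to 1.19; libraries 1.30 and 0.914).

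Few neighbours in this order were apart. LAMP5 or NDNF interneurons exceeded near-projecting neurons 1.42-fold (1.22 to 1.67), the Il1rapl2/Deptor cluster of excitatory neurons, at 0.752, exceeded layer 2/3 neurons 1.21-fold (1.15 to 1.29), and VIP interneurons exceeded cholinergic neurons 1.88-fold (1.26 to 2.80). Of the 25 types with both genes above the free RNA limit, the other neighbours had an interval that included 1.

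**Figure D2:**
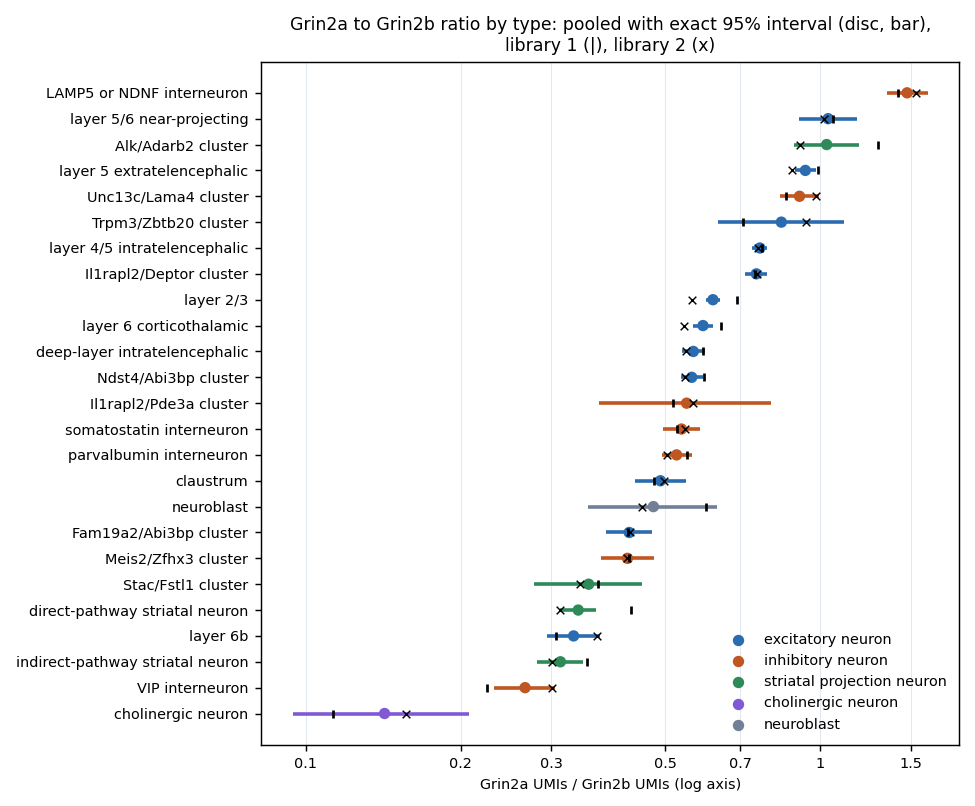
Ratio of Grin2a to Grin2b UMIs (horizontal log axis) in the 25 types where both genes exceeded the free RNA limit, pooled with its exact 95% interval and in each library, marked as in the legend. The order runs from cholinergic neurons at 0.142 to LAMP5 or NDNF interneurons at 1.48.

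The libraries differed in this ratio in some types. Library 1 exceeded library 2 by 1.22-fold (1.15 to 1.30) in layer 2/3 neurons, 1.18-fold (1.08 to 1.29) in layer 6 corticothalamic neurons, 1.12-fold (1.02 to 1.23) in layer 5 extratelencephalic neurons and 1.38-fold (1.15 to 1.65) in direct-pathway striatal neurons. VIP interneurons went the other way, at 0.748 (0.569 to 0.983). Of the 25 types, 14 had the higher ratio in library 1, with 5 intervals above 1 and 1 below. In layer 2/3 neurons the ratio of library 2 to library 1 was above 1 for Grin2b (1.21, 1.17 to 1.26) and had an interval that included 1 for Grin2a (0.991, 0.945 to 1.04). In direct-pathway neurons it was below 1 for Grin2a (0.793, 0.681 to 0.926). With 1 library on each side, treatment, animals and preparation cannot be told apart.

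**Figure D3:**
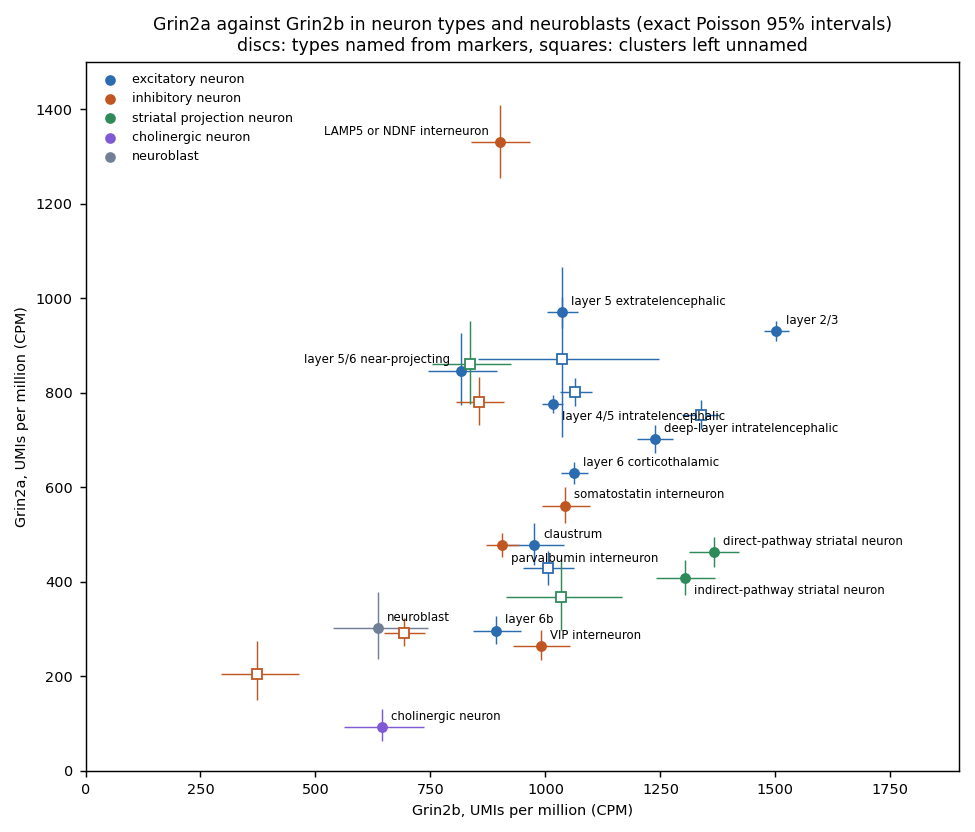
Grin2a against Grin2b, both in CPM, in neuron types and neuroblasts, with exact Poisson 95% intervals as bars and named and unnamed types marked as in the legend. LAMP5 or NDNF and VIP interneurons lie close in Grin2b (901 and 990.1 CPM) and far apart in Grin2a (1329 and 264 CPM).

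Detection in single nuclei showed the same contrast between interneuron types. After thinning to 1000 UMIs, 33.5% of LAMP5 or NDNF nuclei had a UMI of both genes, 32.3% of Grin2a alone and 18.1% of Grin2b alone. In VIP interneurons 13.2% had both, 8.87% Grin2a alone and 49.4% Grin2b alone. Layer 2/3 neurons had both genes in 43.6%, Grin2a alone in 15.2% and Grin2b alone in 31.6% of nuclei. Grin2a alone was thus commoner in LAMP5 or NDNF nuclei than in layer 2/3 or VIP nuclei, and Grin2b alone was less common. The shares are compared between types and not between the genes. Direct-pathway striatal neurons had both in 26.9%, Grin2a alone in 10.1% and Grin2b alone in 45.7%. In oligodendrocytes, given as the level that free RNA reaches, the shares were 1.58%, 5.92% and 8.82%. These come from the 760 of 3060 oligodendrocytes with at least 1000 UMIs. A nucleus without a UMI at this depth may still hold the transcript.

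**Figure D4:**
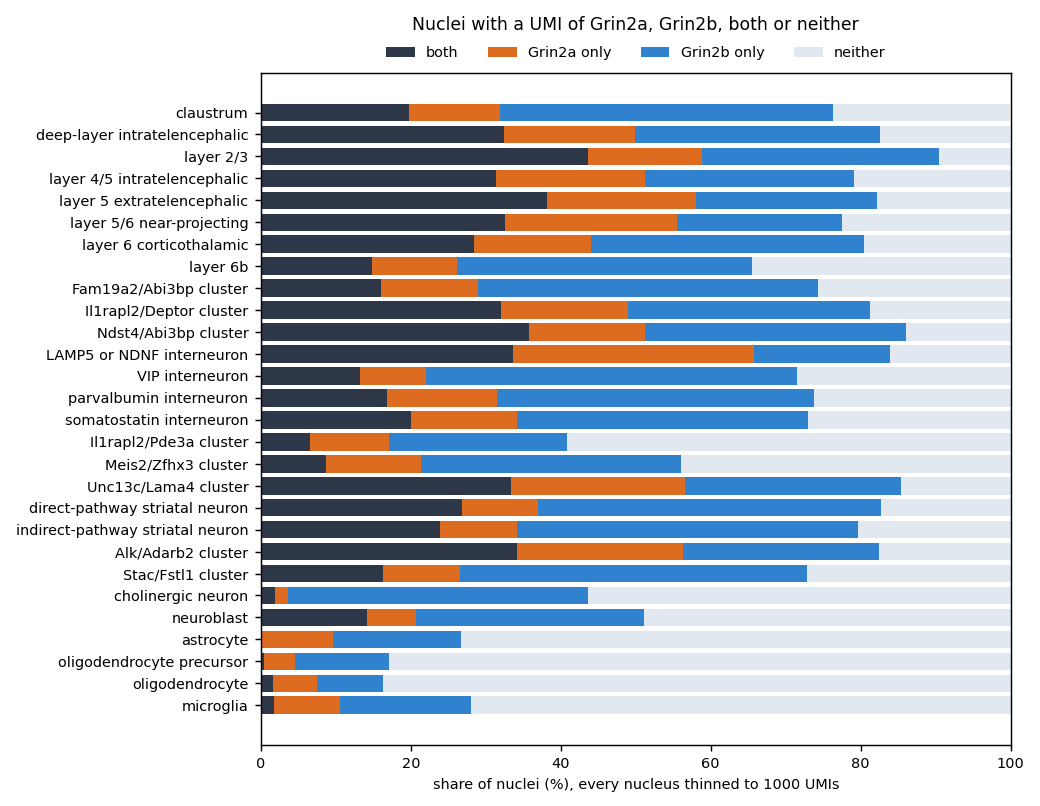
Share of nuclei (horizontal axis, %) with a UMI of both Grin2a and Grin2b, of either alone or of neither, by type. Only nuclei with at least 1000 UMIs are included, each thinned to 1000. Nuclei with Grin2a alone make up 32.3% of LAMP5 or NDNF interneurons and 8.87% of VIP interneurons.

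Grin2c, which encodes GluN2C, was highest in astrocytes. The matrix held only 369 of its UMIs, and 48.2% of those in kept nuclei came from astrocytes, which were 1.69% of nuclei. Astrocytes had 148 UMIs, or 386 CPM (326 to 453; libraries 411 and 381), against a free RNA limit of 8.80 CPM. The next level, 35.8 CPM in fibroblasts, rested on 3 UMIs, and astrocytes exceeded it 10.8-fold (3.62 to 52.9). A Grin2c UMI was found in 36.7% (31.3 to 42.4%) of astrocytes, 31.7% after thinning, and in 0.425% of oligodendrocytes (0.263% after thinning). When only nuclei with at least 1000 genes were kept, the astrocyte level was 242 CPM, and astrocytes were still the highest named type. The median astrocyte held 1190.0 UMIs.

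Neuron types held between 0 and 9.32 CPM of Grin2c. Parvalbumin interneurons, with 19 UMIs, had 6.81 CPM (4.10 to 10.6; libraries 4.33 and 9.27) against a limit of 2.78 CPM, and were the 1 neuron type of 24 above the limit. LAMP5 or NDNF interneurons had 0 Grin2c UMIs in 313 nuclei, which allows up to 4.26 CPM at the upper bound of the interval. In layer 2/3 neurons 18 UMIs gave 2.38 CPM (libraries 0.276 and 4.34).

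Grin2d, which encodes GluN2D, was higher in inhibitory than in excitatory neurons, at low levels. Inhibitory neurons had 55.7 CPM (51.0 to 60.8; libraries 66.9 and 46.7) and excitatory neurons 21.7 CPM (20.2 to 23.2; libraries 21.9 and 21.5), a ratio of 2.57 (2.30 to 2.88). LAMP5 or NDNF interneurons were highest at 84.4 CPM (66.1 to 106; libraries 101 and 68.0), 1.41-fold (1.02 to 1.94) above somatostatin interneurons at 59.97 CPM (48.3 to 73.6; libraries 72.6 and 49.9). VIP interneurons had 59.8 CPM (45.8 to 76.6; libraries 79.1 and 46.1) and parvalbumin interneurons 50.6 CPM (42.6 to 59.6; libraries 59.9 and 41.4). All 4 named interneuron types had the higher value in library 1. The interval of library 2 over library 1 lay below 1 in VIP (0.582, 0.340 to 0.990) and parvalbumin interneurons (0.691, 0.485 to 0.978). Cholinergic neurons had 50.2 CPM (29.2 to 80.4; libraries 67.9 and 40.8) on 17 UMIs.

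Among excitatory types Grin2d ran from 28.9 CPM (25.2 to 33.0; libraries 28.1 and 29.6) in layer 2/3 to 7.03 CPM (1.91 to 17.99; libraries 7.88 and 6.34) in near-projecting neurons, the last not above the limit of 6.75 CPM. Layer 5 extratelencephalic neurons, at 9.04 CPM (6.18 to 12.8; libraries 9.55 and 8.46), exceeded their limit of 3.84 CPM in the pooled sample but not in each library. Layer 6b and deep-layer intratelencephalic neurons both had 24.2 CPM, claustrum-like neurons 22.2 CPM, layer 4/5 intratelencephalic neurons 20.4 CPM and layer 6 corticothalamic neurons 14.1 CPM. The striatal types, at 21.3 CPM (indirect pathway) and 21.2 CPM (direct pathway), lay within this excitatory range. None of the 6 non-neuronal types was above the limit. Per Grin2b UMI, inhibitory neurons had 0.0625 (0.0570 to 0.0684) Grin2d UMIs and excitatory neurons 0.0186 (0.0174 to 0.0200).

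The share of nuclei with a Grin2d UMI after thinning was 9.35% (6.35 to 13.2%) in LAMP5 or NDNF interneurons, 2.56% in layer 2/3 neurons and 1.05% in oligodendrocytes. Without thinning these were 20.1%, 12.8% and 0.752%. Kdelr1, a gene on the opposite strand that overlaps an exon of Grin2d, stood at 79.8 CPM in LAMP5 or NDNF interneurons, 88.6 CPM in astrocytes and 36.2 CPM in layer 5 extratelencephalic neurons. Its part in the Grin2d counts was not tested, and the strand setting of the counting is not given in the sources used here.

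Grin3a, which encodes GluN3A, was highest in somatostatin interneurons and a neighbouring inhibitory cluster, and was the member found in oligodendrocyte precursors. Of its UMIs in kept nuclei, 60.9% came from inhibitory neurons and 27.2% from excitatory neurons. Somatostatin interneurons had 913 CPM (865 to 962; libraries 939 and 891), and the unnamed Unc13c/Lama4 cluster had 1113 CPM (1055 to 1174; libraries 1225 and 999.6). Sst, the gene of somatostatin, stood at 3569 CPM in that cluster, 7458 CPM in the named type and at most 888 CPM in the other types. Among the other named interneurons Grin3a was lower: VIP interneurons had 142 CPM (libraries 193 and 105), LAMP5 or NDNF interneurons 132 CPM (libraries 149 and 116) and parvalbumin interneurons 36.9 CPM (30.2 to 44.8; libraries 39.0 and 35.0). The somatostatin level was 24.7 times the parvalbumin level.

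Oligodendrocyte precursors, the dividing cells that give rise to myelinating glia, had 403 CPM (344 to 469; libraries 389 and 411) of Grin3a against a limit of 25.7 CPM. A Grin3a UMI was found in 36.1% (31.1 to 41.3%) of them, 33.2% after thinning, against 1.60% of oligodendrocytes (1.05% after thinning). Differentiating oligodendrocytes had 60.5 CPM (31.3 to 106; libraries 43.0 and 70.0), above their limit of 23.3 CPM, and oligodendrocytes had 20.2 CPM, below the limit of 28.9 CPM. In the precursors Grin1 (162 CPM, limit 160.2), Grin2a (53.1 CPM, limit 82.7) and Grin2b (126 CPM, limit 122) were not above free RNA by the rule used, nor were Grin2c (2.42 CPM) and Grin2d (9.66 CPM).

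The other neuron types listed here had lower Grin3a levels than somatostatin interneurons. Cholinergic neurons had 408 CPM (342 to 482; libraries 221 and 507), and library 2 over library 1 was 2.30, 1.49 to 3.67, from 18 nuclei in library 1 and 37 in library 2. Claustrum-like neurons had 237 CPM (207 to 269.6; libraries 229 and 241), the highest excitatory type. Near-projecting neurons had 111 CPM (libraries 90.6 and 127), layer 5 extratelencephalic neurons 57.1 CPM and deep-layer intratelencephalic neurons 56.6 CPM. Claustrum-like neurons thus stood above the cortical excitatory types in both libraries. Layer 4/5 intratelencephalic neurons had 36.0 CPM, layer 2/3 neurons 26.8 CPM (libraries 21.5 and 31.6), direct-pathway striatal neurons 26.3 CPM and layer 6b neurons 18.7 CPM. Layer 6 corticothalamic neurons, at 9.04 CPM, and indirect-pathway striatal neurons, at 10.7 CPM, were not above the limit. Of the 30 neighbour pairs 4 were apart, among them somatostatin interneurons over cholinergic neurons (2.24-fold (1.88 to 2.69)) and claustrum-like neurons over the unnamed Meis2/Zfhx3 cluster (1.53-fold (1.26 to 1.86)).

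Levels also varied inside named types. Types are split here by the broad clusters their nuclei came from, and leading genes are those of each whole broad cluster. Of the somatostatin interneurons, 359 came from a cluster of 733 nuclei led by Grin3a and Sst. Another 116 came from a cluster led by Nos1 and Npy, genes of long-range nitric oxide cells. Grin3a stood at 1052 CPM (993 to 1113; libraries 1054 and 1049.8) in the former and 512 CPM (439.9 to 591; libraries 523 and 504) in the latter. Because Grin3a leads the former cluster in the same counts, its higher level there restates that ranking. Grin2b stood at 1129.9 CPM (1069 to 1193; libraries 1129 and 1131) and 748 CPM (660.4 to 843; libraries 836 and 692). Grin2a had the opposite order in the pooled sample and in both libraries, at 531 CPM (489 to 575; libraries 516 and 544) and 638 CPM (558 to 727; libraries 734 and 577). The 6 members were left out of the genes used for clustering, but these splits come from the same nuclei and are descriptions.

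Among layer 4/5 intratelencephalic neurons, 1351 nuclei from the cluster led by Rorb had 815 CPM of Grin2a and 1060.5 CPM of Grin2b. The 236 nuclei from the cluster led by Ntng1 and Fyb2 had 399 CPM (358 to 444; libraries 392 and 405) of Grin2a and 641 CPM (588 to 697; libraries 625 and 653) of Grin2b. Grin1 was lower in the latter as well, at 408 against 561 CPM. Layer 6 corticothalamic neurons held 67 nuclei from a broad cluster of 352 led by Fbxl7 and Svil, genes that also lead the layer 6b type. These 67 had 243 CPM (187 to 309.7; libraries 195 and 273) of Grin2a, against 296 CPM in layer 6b. The 1196 nuclei from the cluster led by Zfpm2 had 652 CPM. Grin1 was 644 CPM in the 67 nuclei and 669 CPM in the 1196. Whether the 67 nuclei belong to layer 6b was not tested.

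Other genes that overlap the members had few UMIs. Grin1os, antisense to Grin1, reached at most 9.17 CPM in any type, and Gm14330, antisense within Grin2b, at most 16.4 CPM. Ppp3r2, within Grin3a on the same strand, had 0 UMIs in every type.

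Across the 20 named types with at least 100 nuclei, Grin1 and Grin2b were the most alike pair of members, with a Pearson r of log2(CPM + 10) of 0.962, followed by Grin1 and Grin2a (0.900) and by Grin2a and Grin2b (0.893). Grin2d was less like these, from 0.374 to 0.519, and Grin3a had r between −0.0461 and 0.0133 with Grin1, Grin2a and Grin2b. The 20 types include glia, where Grin1 and Grin2a were not above free RNA, so r includes the step between neurons and glia. It was not computed within neuron types alone and does not show that members move together there. The types share the same libraries and free RNA, and these values are descriptions.

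Over 10002 genes and the same types, glia included, the genes closest to Grin1 were Ksr2 (0.9702), Armc9 (0.963) and Trank1 (0.960). Those closest to Grin2b were Armc9 (0.982), Ksr2 (0.966) and B830012L14Rik (0.956). Grin2a was closest to Efna5, an ephrin (0.933), Spata7 (0.926) and Rapgef4 (0.918). Grin1 and Grin2b thus shared Ksr2 and Armc9, and Grin2a shared none of its 3 with them. Grin2c was closest to Phkg1 (0.971), Slc39a12 (0.937) and Slc27a1 (0.935), each highest in astrocytes. Grin2d was closest to Col19a1 (0.881), Fbxo8 (0.847) and Ggact (0.826), and Grin3a to AI504432 (0.863), Slc7a3 (0.714) and Ptprt (0.713).

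Partner genes of the receptor were followed over the 9 classes with at least 100 nuclei. Of 14 postsynaptic scaffold genes, 6 were highest in striatal projection neurons, 42.9% against 7.14% of all 15851 genes measured, and 3 in neuroblasts, 21.4% against 16.4%. The most uneven was Actn2, an actinin that binds GluN1, at 277 CPM (260.2 to 294) in striatal projection neurons, 19.1 times the median class. Dlgap2, a postsynaptic density protein, was highest in excitatory neurons at 945 CPM (936 to 955), as was Shank2 at 172 CPM (168 to 176). Lrrc7, or densin, was highest in striatal projection neurons at 2169.6 CPM (2124 to 2216). Of the 6 scaffold genes highest in the striatal class, Dlg2, Homer1, Actn2 and Lrrc7 were so in both libraries, while in library 1 Dlgap3 was highest in excitatory neurons and Shank3 in neuroblasts.

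Of 15 calcium and kinase genes, 4 were highest in neuroblasts (26.7% against 16.4% of all genes measured) and 3 in microglia (20% against 18.2%). Another 2 each, or 13.3%, were highest in astrocytes (14.8% of all genes), inhibitory neurons (7.501%), striatal projection neurons (7.14%) and excitatory neurons (6.397%). The microglial and astrocyte shares were thus near those of all genes. Nos1, neuronal nitric oxide synthase, stood at 49.4 CPM (44.9 to 54.2) in inhibitory neurons, 9.74 times the median class, and Camk2g, a CaM kinase II subunit, at 276 CPM (226 to 334) in astrocytes. Rasgrf2, a calcium-dependent exchange factor, was highest in inhibitory neurons at 162 CPM (154 to 171), and Ppp3ca, a catalytic subunit of calcineurin, in striatal projection neurons at 2538 CPM (2488 to 2589). Of 12 genes of tyrosine phosphorylation and trafficking, 3 were highest in striatal projection neurons, 25% against 7.14% of all genes. A further 2 each, or 16.7%, were highest in inhibitory neurons (7.501% of all genes), neuroblasts (16.4%) and differentiating oligodendrocytes (12.6%). Another 1 each, or 8.33%, were highest in microglia (18.2%), oligodendrocytes (7.97%) and oligodendrocyte precursors (9.03%). The neuroblast, oligodendrocyte and precursor shares were thus near those of all genes, and the microglial share was below. Fyn, a kinase that phosphorylates GluN2 subunits, stood at 2757 CPM (2531 to 2998) in differentiating oligodendrocytes, 24.6 times the median class. Reln, which encodes reelin, was highest in inhibitory neurons at 367 CPM (355 to 379.9), as was Grip1, an AMPA receptor scaffold, at 1577 CPM (1551 to 1603). Kif17, a motor that carries GluN2B, was highest in striatal projection neurons at 83.5 CPM (74.7 to 93.1).

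Of the genes of glycine and D-serine, the co-agonists, 10 of 12 were measured and 5 were highest in astrocytes, the class of Grin2c, 50% against 14.8% of all genes measured. Slc7a10, a transporter of D-serine and small neutral amino acids, stood at 779 CPM (693 to 872) in astrocytes, 146 times the median class, and Gldc, of the glycine cleavage system, at 169 CPM (131 to 216). Slc1a4, a neutral amino acid exchanger, was highest in astrocytes at 206 CPM (163 to 256), and Shmt2, a mitochondrial enzyme that makes glycine, in neuroblasts at 70.1 CPM (40.9 to 112). Phgdh and Psph, enzymes of serine synthesis, were not apart from oligodendrocytes, at 1.23-fold (0.882 to 1.68) and 1.38-fold (0.771 to 2.33), and in library 1 Phgdh was highest in oligodendrocytes. Grina, a gene named for an NMDA receptor-associated protein, was highest in astrocytes at 750.2 CPM (666 to 842). Grin3b, the remaining subunit gene, had 27 UMIs in these classes, under the 50 required.

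**Figure D5:**
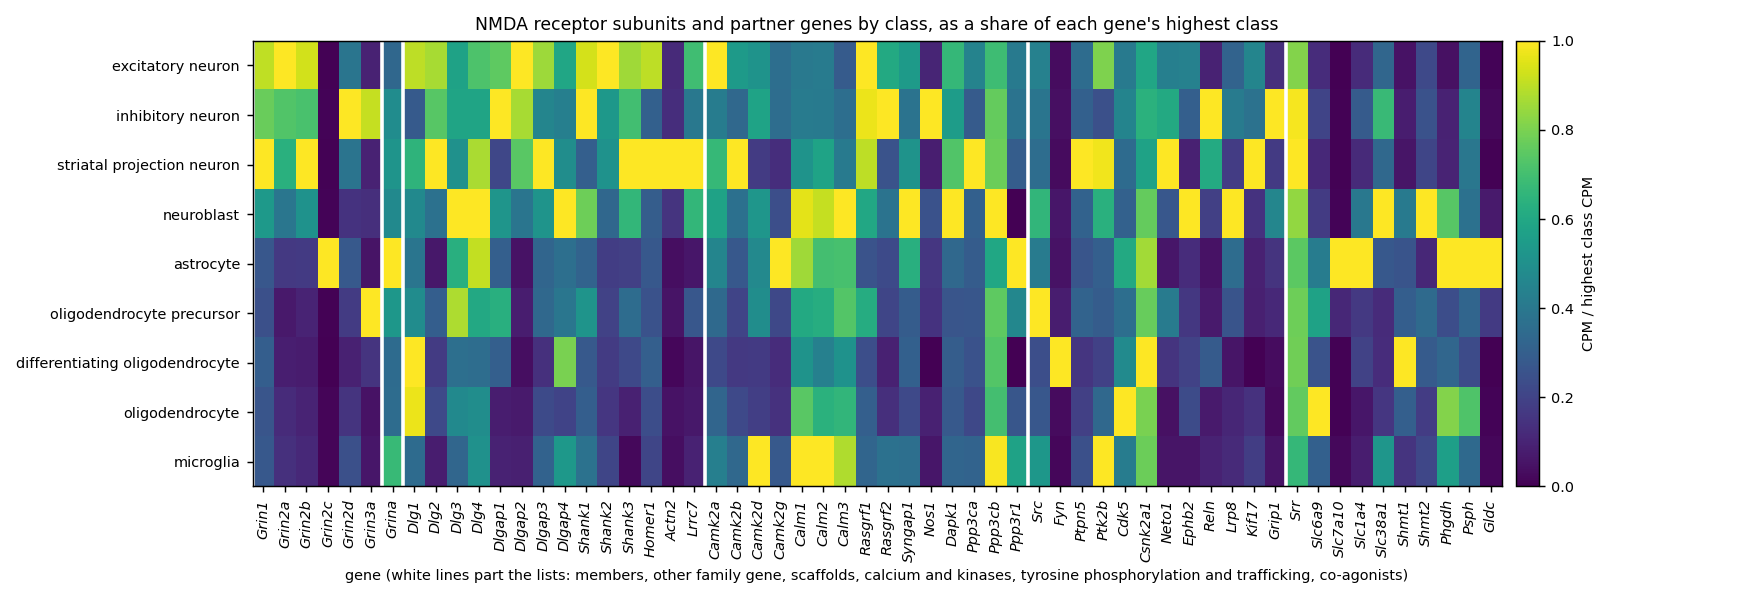
Level of each measured gene in 9 classes (vertical axis) as a share of its highest class (colour, from 0 to 1), with genes along the horizontal axis in the order of the lists. Grin2c, Slc7a10, Slc1a4 and Gldc are highest in astrocytes in both libraries, and Dlg2, Homer1, Actn2 and Lrrc7 in striatal projection neurons.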

How the data were processed

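Nuclei of 2 libraries were analysed as 1 pooled sample and side by side. The deposited values are UMI counts per gene and barcode in 1 matrix. Cell Ranger 1.3.0, Seurat 3.1.4 and mm10 are named in the submitters' processing notes, and per the file headers software version 3.1.0 wrote the matrix. Which of these was used for counting, and its strand setting, are not given in the sources used here.

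The filter on barcodes was 500 genes, and Scrublet, run in Scanpy 1.11.5 on each library, marked 10.0% and 6.19% of them as doublets, which were removed. Nuclei were clustered on 3000 variable genes without the 6 members, with 50 principal components, 20 neighbours and Leiden resolution 1 (igraph 0.11.9). Clusters were named from 216 markers, by a rule whose details were chosen after the data were seen. Names are rebuilt and can differ from the study's, and 589 nuclei (3.27%) had no broad class.

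Levels in CPM came from UMIs summed per type. Levels have exact Poisson intervals, with exact conditional (Clopper-Pearson) intervals for ratios and Clopper-Pearson intervals for shares (SciPy 1.17.1). These cover counting error only. Nuclei are not replicates, and p-values were not computed. The limit for free RNA in a type was its Slc17a7 level times the lowest ratio of a gene's upper bound to that level. In excitatory types the myelin gene level, times 0.1541 in library 1 and 0.1866 in library 2, took the place of Slc17a7. The lowest ratio was taken over broad classes of at least 200000 UMIs, in each library by itself.

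For each member the 3 genes with the highest r among those of at least 500 UMIs are named, and of each list the 4 genes with the highest ratio of highest to median class among those of at least 50 UMIs. Members and lists were chosen with earlier results of these data known. Intervals, thinning and the search for alike genes were tested on simulated data, as a check of the code and not of these data. Intervals were checked on Poisson counts, and the search on planted genes among genes with shuffled types.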

Additional observations from a re-analysis of the deposited data

How the results depend on the processing

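Alternatives changed the gene minimum, doublet removal, clustering, weighting, free RNA, library, depth and scaling, 1 at a time. Under all 12 alternatives for levels the highest named type was the same for every member except Grin1 (11 of 12; in library 1 alone it was the indirect-pathway striatal type). Under all 11 for the ratio the striatal class was the lowest of the 3 large neuron classes. Values outside the counting interval were as follows. The excitatory ratio was 0.695 in library 1, 0.629 in library 2, 0.643 as a mean over nuclei and 0.635 after thinning. The inhibitory ratio was 0.650 with doublets kept. The striatal ratio was 0.352 without a gene minimum, 0.413 with doublets kept, 0.486 in library 1 and 0.359 in library 2.

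Grin1 in layer 5 extratelencephalic neurons was 685 CPM in library 2, 668 with free RNA subtracted, 764 after thinning and 786 with median-of-ratios scaling. Grin2a in LAMP5 or NDNF interneurons was 1463 CPM at resolution 0.5 and 1429.7 with 30 principal components and 15 neighbours. Grin2b in layer 2/3 was 1354 CPM in library 1, 1639 in library 2, 1463 with free RNA subtracted and 1651 with median-of-ratios scaling. Grin2c in astrocytes was 242 CPM at 1000 genes and 262 with doublets kept. Grin3a in somatostatin interneurons was 985 CPM at 1000 genes, 986 with doublets kept and 1013 at resolution 0.5. Grin2d left its interval under none of the 12. The cause was not tested. Median-of-ratios scaling shifted types by −0.24 to 0.14 on the log2 scale. Free RNA limits what can be said of Grin1, Grin2a and Grin2b in glia, and 49 astrocytes limit library 1. No paired analysis was possible because each group is 1 library and no test was run.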
